A study of Mus musculus with 192 samples.

Results

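Single mouse embryonic stem (ES) cells were ranked by the share of their gene molecules that came from the mitochondrial genome, and the nuclear genes of cells with a high and a low share were compared. The members were selected on measured values. Of 96 wells, 39 were used: they held at least 53000 gene molecules (49 wells), at most 30000 spike-in molecules (47 of these), under 25 Krt8 and Krt18 molecules per 10000 gene molecules (40 of these), and well E02 was left out. The 13 wells with the lowest mitochondrial share (low-share wells) were set against the 13 with the highest (high-share wells), with 13 middle wells between them. The share chose the groups, so its difference between them is a description.

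All wells held cells of the R1 line, grown in ES1 medium on irradiated mouse embryonic fibroblast feeders, harvested at confluency, separated from feeders by settling, depleted of dying cells on annexin V-coated beads, and then stored frozen with DMSO. No genotype, treatment or time differed between the wells. They came from 1 chip and 1 thawed aliquot, which counts as 1 sample, so no p-value or standard error is given, and differences between cells cannot be told apart from differences between chambers. Each well was deposited as 2 GEO libraries, before and after further PCR, 192 in all, and the count table gives 1 column per well without separating them.

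Mitochondrial DNA encodes a small set of respiratory chain and ATP synthase subunits, with the ribosomal and transfer RNAs needed to translate them. All other mitochondrial proteins, including most subunits of the same complexes, are encoded in the nucleus and imported. Both strands of the circular genome are transcribed as long precursors that are cut into single RNAs. The heavy strand carries most of the genes, and the light strand gives mt-Nd6 and some tRNAs. In single-cell data the mitochondrial share moves with the amount of mitochondrial RNA and with the amount of all other RNA.

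Molecules of ES cell markers were present in the wells, though well D02, described below, had the lowest sum of the core pluripotency list. Pou5f1, the central pluripotency transcription factor, Utf1, Dppa5a and Zfp42 had molecules in all 39 wells, and Nanog and Sox2 in 38. Of the 24 markers of feeder fibroblasts, 8 had a mean of at least 10 molecules per member well and were above 0 in all low-share and high-share wells: Lgals1, Cyr61, S100a6, Fn1, Sparc, Vim, Tagln and Serpinh1. Their means ran from 10.03 molecules for Serpinh1 to 44.8 for Lgals1. Thy1 and Postn had no molecule in any of the 39 wells, and Col1a1 had 4 molecules in all. Of the mitochondrial genes, the ribosomal RNA mt-Rnr2 and the protein-coding mt-Co1 were present in every well.

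A pair of the high-share wells stood apart, and calls that were lost without them are marked below. In well D02 the feeder markers summed to 250.3 molecules per 10000 non-mitochondrial gene molecules, against 7.74 to 47.5 in the other members, and the core pluripotency list had its lowest sum, 26.5 against 47.4 or more. Lgals1, a galectin abundant in fibroblasts, had 85.2 per 10000 in D02 and at most 16.8 elsewhere. The rule kept D02 among the members, and whether it held an ES cell or a feeder cell was not tested. Well A08 held molecules of Zscan4 genes, which mark a transient 2-cell-embryo-like state of ES cells. It had 17 molecules of Zscan4b, 9 of Zscan4d, 10 of Zscan4e and 21 of Zscan4f, and the other 38 wells together had 3, 4, 1 and 8. MT2_Mm, the long terminal repeat of the retrovirus MERVL that is transcribed in the same state, had 85.99 per 10000 in A08 and at most 13.7 in any other member. D02 and A08 also held the fewest non-mitochondrial molecules of the 39 wells, 47539 and 45473, and their mitochondrial shares were 14.1% and 15.8%.

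The mitochondrial share ran from 6.30% to 16.5% of gene molecules. It was 6.30%, 8.21% and 8.92% (lowest, median, highest) in the low-share wells, 8.95%, 10.4% and 11.4% in the middle wells, and 11.4%, 12.4% and 16.5% in the high-share wells. The values formed a continuous series with no gap at either border: the last low-share well, B09, had 8.92% and the first middle well, C08, 8.95%, while the last middle well, E12, had 11.35% and the first high-share well, G05, 11.42%. At the other limits of the rule, A08 was just inside with 53975 gene molecules and H08 just outside with 52812, and H05 was inside with 20.5 keratin molecules per 10000 and G12 outside with 29.2. The spike-in limit fell in a wide gap, between 9034 molecules in H07 and 36465 in C03. The 47 wells under 53000 gene molecules had a median share of 29.02%, above every member.

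**Figure D1:**
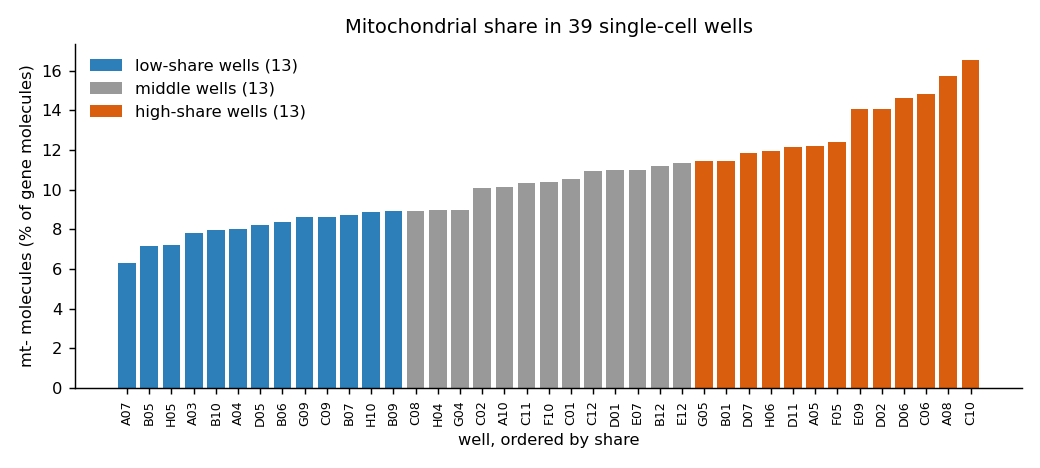
Mitochondrial molecules as a percentage of gene molecules in each of the 39 wells, ordered by that value, with 1 bar per well and colours for the low-share, middle and high-share wells. The bars rise from 6.30% in A07 to 16.5% in C10 without a step at the borders between the groups.

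Both parts of the share differed between the groups when counted per spike-in molecule, an external standard added to each chamber with the lysis buffer. Mitochondrial molecules per spike-in molecule were 0.827, 1.03 and 1.26 (lowest, median, highest) in the low-share wells and 1.17, 1.52 and 2.01 in the high-share wells. The lowest high-share wells overlapped the highest low-share wells, and the ratio of medians was 1.48. Non-mitochondrial gene molecules per spike-in molecule were 9.78, 12.6 and 15.0 in the low-share wells and 6.75, 10.2 and 12.1 in the high-share wells, a ratio of medians of 0.805. Wells with a high share held more mitochondrial and fewer other molecules against the same standard. Both quantities enter the share that chose the groups, so these differences describe the groups. Over the 39 wells the Spearman correlation of the share was 0.73 with mitochondrial and -0.51 with non-mitochondrial molecules per spike-in. The 2 quantities themselves had a correlation of 0.13, although they share the spike-in count of the well. These correlations describe cells of 1 culture, and the first pair contain the share's own numerator and denominator.

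**Figure D2:**
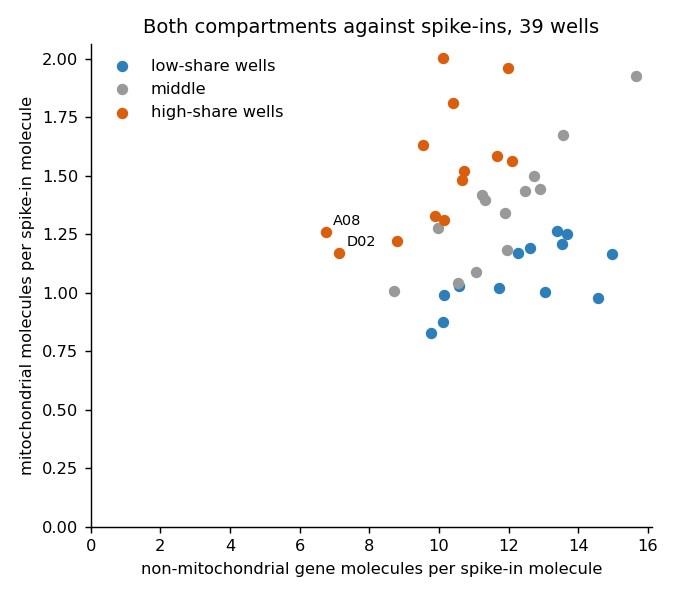
Mitochondrial molecules per spike-in molecule (vertical) against non-mitochondrial gene molecules per spike-in molecule (horizontal), with 1 point per well for 39 wells and both axes starting at 0. High-share wells lie higher (1.17 to 2.01) and further left (6.75 to 12.1) than low-share wells (0.827 to 1.26 and 9.78 to 15.0), with overlap on each axis. D02 and A08 lie furthest left.

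Several technical values moved with the ranking, and their part in the gene results below was not tested. Gene molecules had medians of 113874 in the low-share and 91269 in the high-share wells, spike-in molecules 8254 and 7603, and detected genes 6971 and 6551. Plate rows A and B held 8 of the 13 low-share wells and 3 of the 13 high-share wells, and the median share was 8.73% in the 13 members of rows A and B and 10.97% in the 26 of rows C to H. Within rows C to H, the 10 high-share wells and 5 low-share wells had median shares of 13.2% and 8.62%, and their ratio of mitochondrial molecules per spike-in was 1.30. Spike-ins themselves, each as a share of all spike-in molecules, had ratios between the groups of 0.889 to 1.18 over the 24 with a mean of at least 10 molecules.

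The mitochondrial transcripts with enough molecules to compare were all higher in the high-share wells, on mean levels. The table held 37 mitochondrial genes, of which 25 had a mean of at least 10 molecules per member well, 11 had fewer and mt-Th had none in the members. Per 10000 non-mitochondrial molecules, mt-Rnr2, the large ribosomal RNA, had 125, 174 and 203 in the low-share wells and 228, 284 and 376 in the high-share wells (lowest, median, highest). mt-Co1, the catalytic core subunit of cytochrome c oxidase, had 101, 140 and 166 in the low-share wells and 185, 225 and 317 in the high-share wells. The groups did not overlap for these genes or for mt-Rnr1, mt-Nd2, mt-Co2, mt-Co3, mt-Atp6 and mt-Cytb, 8 of 25 in all. Over the 25 genes the ratio of mean levels ran from 1.33 to 2.14 with a median of 1.75. These genes made up the share that ranked the wells, so neither the direction and size of the ratios nor the lack of overlap is a finding.

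Within the mitochondrial molecules, which the ranking did not fix, the make-up was nearly the same in both groups by mean levels. Counted per 10000 mitochondrial molecules, the ratio of means between the groups had a median of 1.00 over the 25 genes, ranged from 0.751 for mt-Nd6 to 1.251 for mt-Ta, and was past 1.5-fold for 0. The ratio of medians ranged from 0.504 for mt-Tp, the 1 gene past the fold on that measure, to 1.397 for mt-Tw. Without D02 the mt-Nd6 ratio of means was 0.650, past the fold. In plate rows C to H alone, 6 genes were past the fold by the ratio of medians, with mt-Tp lowest at 0.377. By the ratio of means 0 were past it there, with mt-Nd6 lowest at 0.678. mt-Rnr2 had mean levels of 1937 in the low-share and 1892 in the high-share wells per 10000 mitochondrial molecules, and mt-Co1 had 1530 and 1534. Ribosomal RNA made up a median of 24.97% of mitochondrial molecules in the low-share and 24.56% in the high-share wells, mRNA 71.60% and 71.64%, and tRNA 3.55% and 3.29%. For each class the ranges of the groups overlapped widely.

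Single genes differed in how steady their part of the mitochondrial molecules was from well to well. The standard deviation over 39 wells was 7.05% of the mean for mt-Rnr2, 7.31% for mt-Co2 and 7.96% for mt-Co1, and 65.8% for mt-Nd6, the only protein-coding gene of the light strand. mt-Nd6 had a mean of 27.7 molecules per well and mt-Rnr2 one of 1979. Light-strand genes together gave a median of 1.35% of mitochondrial molecules in the low-share wells, 1.10% in the high-share wells and 0.53% in the 47 wells under 53000 gene molecules, with overlapping ranges of 0.88% to 2.91% and 0.42% to 3.78% in the groups. Of the 25 genes, 13 had under 50% of their molecules from uniquely matched reads, among them mt-Co2, mt-Co3, mt-Atp6 and mt-Atp8 with 0%, so their levels depend on how the authors assigned reads with several matches.

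**Figure D3:**
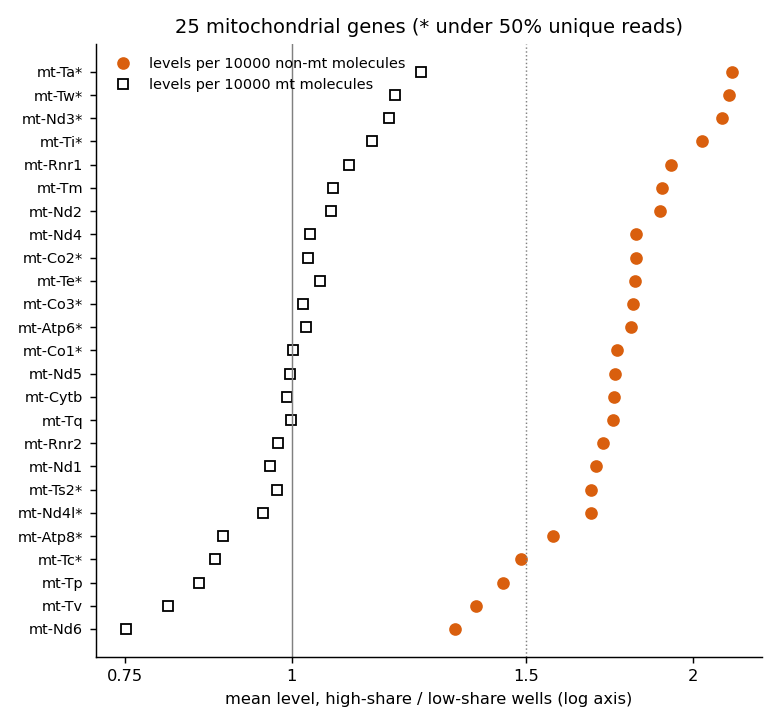
Ratio of mean level between the high-share and the low-share wells (log axis) for the 25 mitochondrial genes with a mean of at least 10 molecules, as levels per 10000 non-mitochondrial molecules (filled circles) and per 10000 mitochondrial molecules (open squares). The circles run from 1.33 to 2.14 and the squares from 0.751 to 1.251, and an asterisk marks genes with under 50% uniquely matched reads.

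The nuclear genes of the same complexes did not follow the mitochondrial ones. For nuclear genes the level is the number of molecules per 10000 non-mitochondrial gene molecules of the well. A gene was called higher or lower when the ratio of mean levels and the ratio of median levels, high-share over low-share wells, were both past 1.5-fold. Genes with a mean of at least 10 molecules per member well were compared, 1523 in all, of which 28 were higher (1.84%) and 43 lower (2.82%), with a median ratio of 0.974. Of 79 nuclear genes of the respiratory chain and ATP synthase, 77 were compared, 0 were called in either direction, and the median ratio was 0.993. Without well D02, 1 of the 77 was lower, and in plate rows C to H alone 1 was higher. The summed level of these nuclear genes was 315, 433 and 455 per 10000 in the low-share wells (lowest, median, highest). In the high-share wells it was 370, 417 and 474, nearly the same range. The Spearman correlation of this sum with the mitochondrial share was -0.13 over the 39 wells. For every nuclear gene, the level and the share both contain the well's non-mitochondrial molecules. The part of this common total in the gene correlations given here and below was not tested.

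By complex, complex I (NADH dehydrogenase) had a median ratio of 0.955 over 35 genes, complexes II to IV 1.00 over 25 and ATP synthase 0.993 over 17. The lowest of the 77 was Ndufb8, an accessory subunit of complex I, with levels of 3.59, 6.33 and 9.68 in the low-share wells and 2.44, 4.37 and 7.36 in the high-share wells. Its ratio of means was 0.67, just short of the fold, 12 of 13 high-share wells were below the low-share median, and its Spearman correlation with the share was -0.52. Ndufa4, a cytochrome c oxidase-associated subunit that was counted here in the complex I list, had a ratio of 1.22. The ratio was 1.00 for Cox7c, 0.92 for Atp5b, the catalytic beta subunit of ATP synthase, and 0.83 for Cycs, cytochrome c. Cycs had 2.51% unique reads.

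Other nuclear lists of mitochondrial function had few calls. The mitochondrial ribosome list had 37 genes compared, 0 higher and 1 lower, with a median ratio of 0.942. The one called was Mrps28, a small-subunit protein, with medians of 1.87 in the low-share and 1.15 in the high-share wells. Import genes (16 compared), chaperones and proteases (7), dynamics and mitophagy (10), the citric acid cycle (10) and glycolysis (13) had 0 calls, with median ratios of 1.01, 1.07, 0.91, 0.95 and 0.97. In plate rows C to H alone, import had 1 higher gene and dynamics and mitophagy 1 lower. The mitochondrial ribosome list had 1 higher and 2 lower there. Genes that maintain and transcribe mitochondrial DNA were mostly too low: 1 of 18 in the table was compared, Ssbp1, the mitochondrial single-strand binding protein, with a ratio of 0.87. Tfam, which packages and transcribes mitochondrial DNA, had a mean of 7.59 molecules, too few to be compared here. Lars2, the mitochondrial leucyl-tRNA synthetase, was among the genes most correlated with the share (0.54): it had 14.8, 18.8 and 25.2 per 10000 in the low-share wells and 20.5, 24.4 and 45.7 in the high-share wells. All 13 high-share wells were above the low-share median, and the ratio of 1.37 was under the fold.

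The largest ratio of means among the 1523 nuclear genes compared was that of Snora75, a small nucleolar RNA of the H/ACA class, which guide the change of uridine to pseudouridine in other RNAs. It lies on the minus strand at chr1:86351169-86351301 (GRCm38), inside the nucleolin gene Ncl. In GENCODE M21 it overlaps an annotated exon of Ncl, but no exon of Ncl's protein-coding transcripts. It is shown because it is a short RNA whose count tracked the ranking most closely; capitals mark the ACA box that defines its class, 3 bases before the 3′ end.
Snora75: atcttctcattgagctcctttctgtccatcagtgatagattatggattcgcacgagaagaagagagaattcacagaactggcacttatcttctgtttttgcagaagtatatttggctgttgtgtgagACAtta

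Snora75 had 0.083, 0.731 and 1.98 molecules per 10000 in the low-share wells and 0.53, 2.04 and 5.06 in the high-share wells (lowest, median, highest). The groups overlapped, but 7 of 13 high-share wells were above every low-share well, and the ratio of means was 2.99. Pooled over wells, 93 molecules in the low-share and 218 in the high-share wells gave a ratio of 3.05 (exact 95% interval 2.38 to 3.93). The interval covers counting error only, not the spread between wells or the choice of this gene for its large ratio. The Spearman correlation with the share was 0.70. Ncl itself, a nucleolar protein, had a ratio of 0.96. Per spike-in molecule the Snora75 ratio was 2.49.

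Among the other genes called higher, Srrm2, a scaffold of nuclear speckles, had 0.52, 1.16 and 2.27 in the low-share wells and 0.92, 2.53 and 6.62 in the high-share wells, with a ratio of 2.37 and a correlation of 0.70. For this gene 9 of 13 high-share wells were above every low-share well. Ncor1, a nuclear receptor corepressor, had 0.26, 0.92 and 1.76 in the low-share and 0.50, 2.05 and 3.77 in the high-share wells, a ratio of 2.27, with 8 of 13 high-share wells above every low-share well. Arglu1, a splicing and coactivator protein, had 0.26, 0.79 and 2.31 in the low-share and 0.63, 1.76 and 3.18 in the high-share wells, a ratio of 1.92. Rbm25, a splicing regulator, correlated with the share at 0.55 and had a ratio of 1.47, under the fold. Rn45s, the precursor of the large cytosolic ribosomal RNAs, correlated at 0.57 and had a ratio of 1.33. These levels have the non-mitochondrial total in common with the share, and ratios per spike-in molecule are given below. Malat1, a nuclear-retained RNA, had a ratio of 1.21 and a correlation of 0.08.

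The same RNAs were high in the 47 wells under 53000 gene molecules (low-count wells), which entered neither group. These wells had 1.45, 2.55 and 16.3 non-mitochondrial molecules per spike-in molecule (lowest, median, highest), and 1 of them, H12, lay above the lowest member. Their median levels were 12.6 for Snora75, 9.61 for Srrm2, 5.97 for Ncor1, 4.32 for Arglu1, 13.2 for Rbm25, 78.5 for Lars2 and 798 for Rn45s per 10000, each above its median in the high-share wells. Among the 28 genes higher in the high-share wells, 10 (35.7%) had a mean level in those wells at least 1.5 times that of the 13 middle wells, against 9.78% of all 1523 genes. Another 5 (17.9%) were lower by as much, against 20.1% of all. Of the 43 genes lower in the high-share wells, 15 (34.9%) were also lower and 3 (6.98%) higher in the low-count wells. The high-share wells had fewer non-mitochondrial molecules than the low-share wells, and the part of molecule number in these ratios was not tested.

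Of the 14 named genes that were higher, 6 had a lower mean level in the low-count wells than in the middle wells: Tmem50a, Eif2b1, Cisd3, Gstp1, Mybl2 and Gpx4. Tmem50a, a membrane protein, had a ratio of 2.12 and medians of 0.66 in the low-share wells, 1.44 in the high-share wells and 1.05 in the low-count wells. Eif2b1, a subunit of the guanine nucleotide exchange factor of translation initiation, had a ratio of 2.08 and medians of 0.66, 2.08 and 0.79. Gstp1, a glutathione transferase, had 0.38, 1.58 and 3.85 in the low-share wells and 0.66, 3.62 and 5.17 in the high-share wells, a ratio of 1.95, and a median of 1.70 in the low-count wells. Pisd-ps3, a pseudogene of phosphatidylserine decarboxylase with 67.4% unique reads, had a ratio of 2.48 and a mean level in the low-count wells 4.81 times that of the middle wells. The RNA helicase gene Ddx10 had a ratio of 1.85, and the low-count wells had 1.14 times the middle level. Cisd3 (2.03) and Mybl2 (1.76) had 27.8% and 32.5% unique reads and are uncertain, and their low-count levels were 0.490 and 0.845 times the middle level.

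Some of the calls rested on 1 well. Values without a well are given with the other wells kept in their groups. Fn1, fibronectin, had a ratio of 2.19, and 1.26 without D02, where it had 19.6 per 10000. Mcl1, an anti-apoptotic Bcl2-family gene, had a ratio of 1.65, and 1.18 without A08, where it had 13.6. Gpx4, described below, fell under the fold without D02 (1.45), and Cisd3 fell under the minimum mean without A08. Snora75 stood at 3.03, Srrm2 at 2.40, Ncor1 at 2.12, Arglu1 at 2.06 and Gstp1 at 1.87 without both wells. Without both wells, 28 genes were higher and 37 lower, of which 21 and 23 were among the 28 and 43. Of the named genes, 11 of 14 higher and 13 of 17 lower genes were still called, and the lower ones lost were Lefty1, Mrps28, Tk1 and Rab11a. Tk1 and Rab11a were also lost when either well alone was left out. With the wells ranked again after leaving out both, Pa2g4, Rpl30, Hspa14 and Mthfd2 were not called either, and Lefty1 was called. Other lower calls rested on 1 low-share well. The ratio was 0.82 for Cyr61 without B05, 0.76 for Dusp1 without H05 and 0.76 for Lefty1 without B10, short of the fold. In plate rows C to H alone, 9 of the 14 and 7 of the 17 were still called. The higher ones lost there were Cisd3, Ddx10, Mybl2, Mcl1 and Gpx4, and the lower ones Mrps28, Cyr61, Serp1, Mthfd2, Tk1, Dusp1, Rab11a, Mrfap1, Lman2 and Actr3. Lman2 was lost there only because it fell under the minimum mean, with ratios of 0.65 for means and 0.59 for medians. Actr3 also fell under that minimum.

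Genes lower in the high-share wells are given as single genes named by their ratios. Sfn, the 14-3-3 sigma adaptor, had the lowest ratio, 0.30, with 0.59, 1.51 and 13.1 in the low-share wells and 0.23, 0.84 and 3.73 in the high-share wells. The ratio of medians was 0.56. Actr3, a core subunit of the actin-branching Arp2/3 complex, had 0.17, 1.54 and 4.70 in the low-share and 0, 0.78 and 1.53 in the high-share wells, a ratio of 0.36. All 13 high-share wells were below its low-share median, and its correlation with the share, -0.59, was the lowest of all genes compared. In plate rows C to H alone the Actr3 ratio was 0.73.

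Pa2g4, a growth-regulated protein that binds ribosomes, had 5.58, 8.21 and 10.5 in the low-share wells and 3.12, 4.72 and 7.17 in the high-share wells, a ratio of 0.64 and a correlation of -0.52. Of the 13 high-share wells 7 were below every low-share well, and 9 low-share wells were above every high-share well. Lman2, a cargo lectin between endoplasmic reticulum and Golgi, had a ratio of 0.45 and medians of 1.48 and 0.84, and Psme2, a proteasome activator subunit, had 0.51 and medians of 3.12 and 1.58. H3f3b, which encodes histone H3.3, correlated at -0.49 with a ratio of 0.77 and 12.4% unique reads. The other named low genes were Mrfap1 (0.47, 43.2% unique reads), Rab11a of recycling endosomes (0.52), the phosphatase gene Dusp1 (0.53), the RNA polymerase II subunit Polr2c (0.53, 49.2% unique reads), thymidine kinase Tk1 (0.54), Mthfd2 of mitochondrial folate metabolism (0.54), Serp1 (0.55) and Hspa14 (0.55). Of all 71 genes called, 0 had groups that did not overlap.

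**Figure D4:**
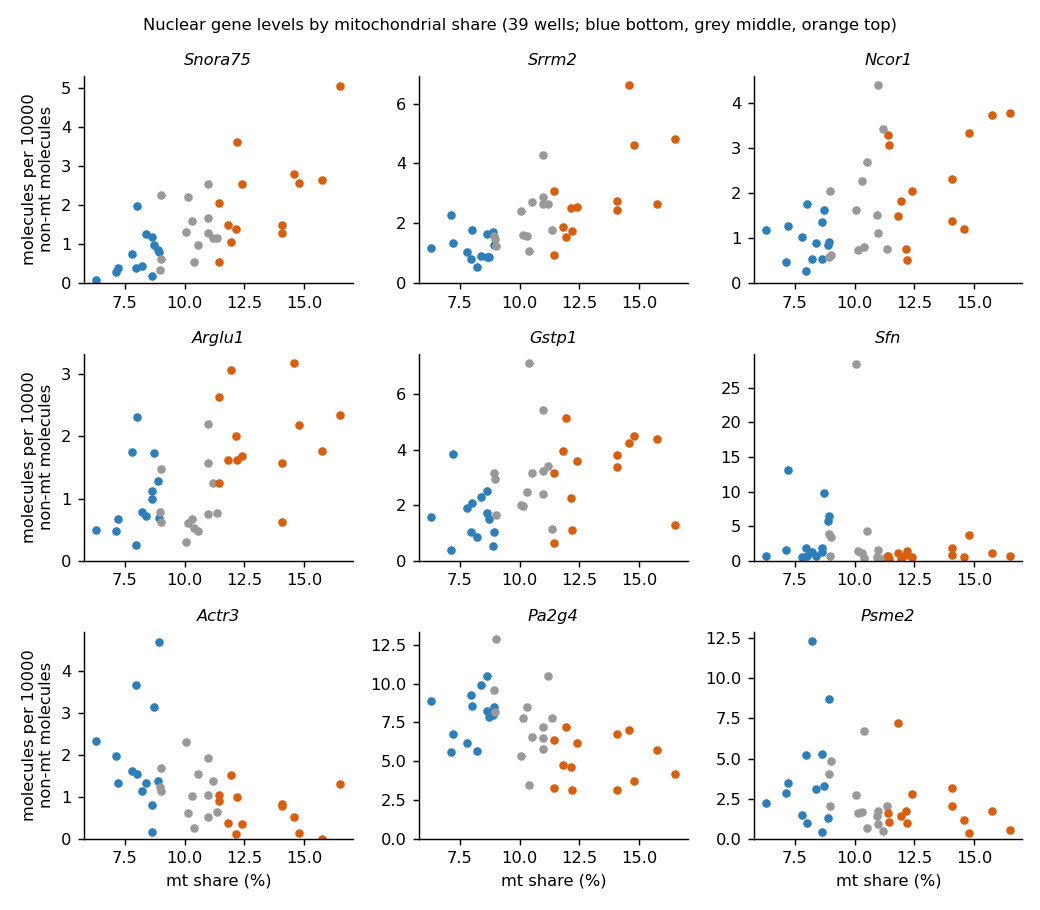
Level of 9 nuclear genes (molecules per 10000 non-mitochondrial molecules, vertical axes from 0) against mitochondrial share (%), with 1 point per well for 39 wells, coloured by group. Snora75, Srrm2, Ncor1, Arglu1 and Gstp1 are higher in the high-share wells and Sfn, Actr3, Pa2g4 and Psme2 lower, and the groups overlap in every panel.

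Further mitochondrial proteins stood among the called genes outside the naming rule, and were picked after their values were seen. The share called among all mitochondrial proteins was not counted, so they are given as single genes only. Lower in the high-share wells were Chchd3 (0.63), of the inner-membrane cristae organising complex, Sfxn1 (0.66), a mitochondrial serine carrier, and Ccdc56 (0.66), a cytochrome c oxidase assembly factor. Coq7, an enzyme of ubiquinone synthesis, was higher (1.63).

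Over all genes compared, 1.84% were higher and 2.82% lower, and the lists of cell state are read against that. The core pluripotency list had 8 genes compared, 0 called and a median ratio of 1.24. Dppa5a, its most abundant member, had 19.3, 83.1 and 139 in the low-share wells and 17.9, 107 and 205 in the high-share wells, a ratio of 1.34. In plate rows C to H alone the list's median was 0.96 and the Dppa5a ratio 0.90. The primed-state list had 6 compared, 0 higher and 1 lower, and a median ratio of 0.632. The one called, Lefty1, a Nodal antagonist, had 0.42, 4.53 and 21.5 in the low-share and 0.66, 2.06 and 15.0 in the high-share wells. The ratios were 0.87 for Dnmt3b, 0.81 for Id3, 0.64 for Id2, 0.62 for Lefty1, 0.53 for Lefty2 and 0.49 for Pim2. In plate rows C to H alone, 5 of the list were compared, 1 was higher and 2 lower, and the median was 0.593. Whether these few genes track the primed state was not tested. The feeder list had 8 compared, with Fn1 higher and Cyr61 lower and a median ratio of 2.22. Without D02, 5 of its genes were compared, 0 were higher and the median was 0.86. S100a6, a calcium-binding protein of this list, had a ratio of means of 2.79 and of medians of 0.81.

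Cytosolic ribosomal protein genes were level between the groups. Of 77 compared, 0 were higher and 1, Rpl30, was lower, with a median ratio of 1.01. G1 and S phase genes (17 compared) and G2 and M phase genes (18) had 0 calls, with median ratios of 0.899 and 1.12. Immediate early genes (4 compared) had 1 lower, Dusp1, and a median of 0.691, which was 1.04 over the 3 compared in plate rows C to H. Integrated stress response genes (10) had 1 lower, Mthfd2, heat shock genes (6) 0 calls, p53 and apoptosis genes (6) 1 higher, Mcl1, and antioxidant genes (15) 1 higher, Gpx4, the lipid peroxide-reducing peroxidase. The antioxidant list had 0 calls without D02, and in plate rows C to H it had 0 higher and 1 lower. Gpx4 had 1.99, 4.45 and 9.57 in the low-share wells and 4.34, 6.82 and 12.4 in the high-share wells, a ratio of 1.53.

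**Figure D5:**
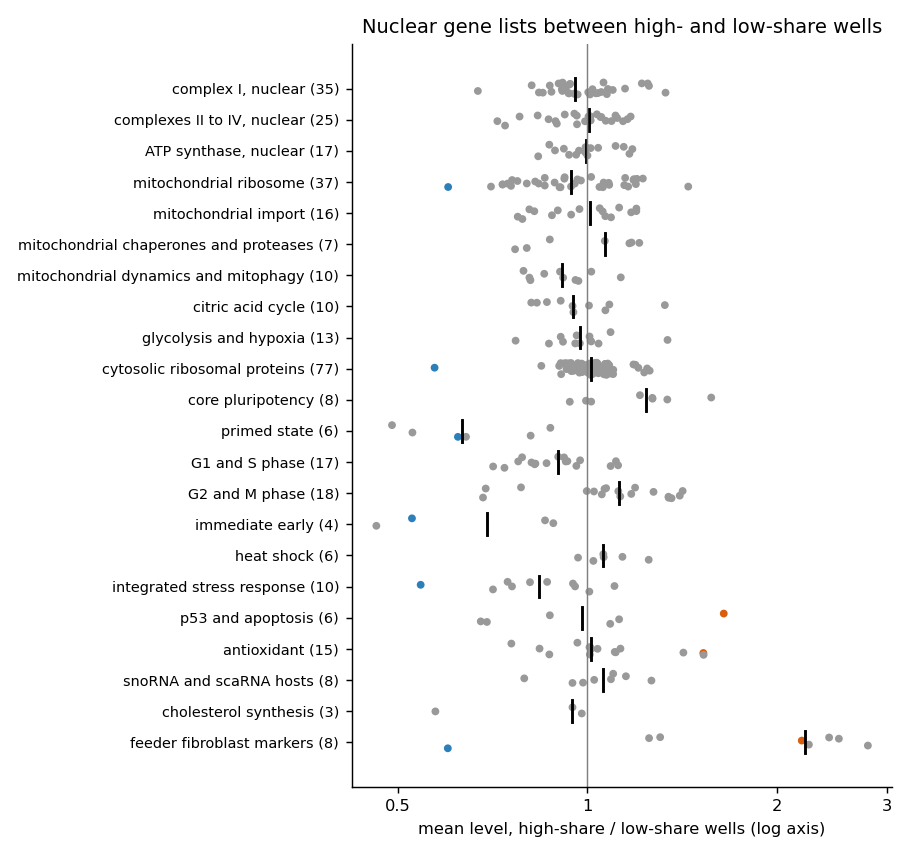
Ratio of mean level between the high-share and the low-share wells (log axis) for each compared gene of 22 nuclear gene lists, with 1 point per gene, a black bar at the list's median and the number compared in brackets. Orange points were called higher and blue points lower. The respiratory chain lists lie around 1, and the feeder list's median of 2.22 became 0.86 without well D02.

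Repeat RNAs, which the table counts apart from genes, were higher in the high-share wells far more often than genes. Of 1554 repeat types, 236 had a mean of at least 10 molecules, 89 of these were higher (37.7%) and 2 lower (0.847%), and the median ratio was 1.52. Simple repeats had 26 of 33 types higher and L1 types, which are autonomous retrotransposons, 26 of 52. B1, B2 and B3 types had 4 of 18 higher, and all other types 33 of 133. Per spike-in molecule the median ratios were 1.82 for simple repeats, 1.38 for L1, 1.21 for B1 to B3 and 1.11 for the others. L1Md_F2 had a ratio of 2.28, with levels of 46.1 to 137 in the low-share and 73.5 to 623 in the high-share wells, and GSAT_MM, the major satellite of mouse centromeres, one of 4.10, with 1.92 to 12.5 and 3.90 to 117. The 2 lower types were the endogenous retrovirus repeats RLTR9D (0.42) and RLTR1B-int (0.59). Without A08 the L1Md_F2 ratio was 1.82 and the GSAT_MM ratio 2.52. MT2_Mm had a ratio of 11.6, and 2.70 without A08. All repeat molecules together were 98.4 per 100 non-mitochondrial gene molecules in the low-share and 118.9 in the high-share wells (medians), and 11.7 and 12.05 per spike-in molecule. The low-count wells had medians of 182.4 and 4.88. The part of molecule number in the repeat ratios was not tested.

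Against spike-ins, the median of the nuclear genes shifted down in the high-share wells: over the 1523 genes the median ratio was 0.79 per spike-in molecule, a log2 shift of -0.33. On that scale 11 genes were past the fold upward and 205 downward, so 5.09% of the calls were higher, against 39.4% per non-mitochondrial molecule. The median ratio of the nuclear respiratory chain genes was then 0.80, close to that of all genes, and that of the repeat types 1.20. Snora75 (2.49), Srrm2 (1.91), Ncor1 (1.80), Arglu1 (1.62) and Gstp1 (1.52) were above 1.5 on both scales, while Gpx4 was 1.20, Lars2 1.08, Rn45s 1.05 and Malat1 0.97 per spike-in.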

How the data were processed

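The deposited table holds whole-number molecule counts (unique molecules, not reads), per the file headers, with 1 column per well, for 24264 genes, 96 spike-ins and 1554 repeat types in 96 wells. The submitters' processing notes name Bowtie and mm10 (GRCm38). Reads with several matches are included, per the file headers, and gave 26.7% of gene molecules. Of 1523 genes compared, 214 had under 50% unique reads. Gene molecules per member well ranged from 53975 to 149091, and their number limits the precision of low genes. Levels, ratios and Spearman correlations were computed with Python 3.11.15, pandas 2.3.3 and scipy 1.17.1. The ratio script was tested on simulated data. Exact 95% intervals of pooled ratios are Clopper-Pearson intervals of the molecules' split between the groups.

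The wells, gene lists and tests were chosen with earlier results of these data known. Named were mitochondrial genes with a mean of at least 10 molecules, the 12 largest and 12 smallest ratios among called genes, up to 4 abundant and 3 called members of each list, the 5 highest and 5 lowest correlations, Rn45s and Malat1. No pair of libraries was tested, since 1 culture is 1 sample. Alternatives on wells D02, A08 and plate rows were chosen after seeing the data.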

Additional observations from a re-analysis of the deposited data

How the results depend on the processing

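The ratio of median shares, high-share over low-share wells, was 1.51, and 1.77 between the 9 wells at each end and 1.48 for mitochondrial molecules per spike-in. The 28 higher and 43 lower genes of 1523 became 11 and 205 per spike-in molecule, and 6 and 0 at a fold of 2. The number compared changed in other settings. With wells thinned to 45473 non-mitochondrial molecules, 9 and 13 of 752 genes were called. The counts were 715 and 1068 of 13634 with no minimum mean, and 4 and 12 of 748 with a mean of at least 20. Snora75, Srrm2, Ncor1 and Arglu1 were called neither after thinning nor with a mean of at least 20. Gstp1 was called in both settings. Between the 9 wells at each end 51 and 85 were called, and between the 19 wells at each end 16 and 19. In plate rows C to H alone (5 low-share and 10 high-share wells) 66 and 87 were called. There 11 of the 28 and 20 of the 43 were still called, and 4 of the 71 turned direction. With the ratio of means alone 44 were higher. The 89 higher repeat types became 47 per spike-in, 210 with no minimum, 54 with a mean of at least 20 and 31 at a fold of 2. Thinning was not run on repeats. Leaving out 1 well of either group gave 22 to 33 higher genes, 37 to 59 lower genes and 73 to 101 higher repeat types. Cyr61, lower at 0.60, was 1.21 in plate rows C to H alone. Without plate rows A and B, or with fewer molecules, fewer wells or genes carry each ratio; other causes were not tested. No paired analysis was possible because the count table has 1 column per well, not 1 per library. Genes near 10 molecules per well are limited by depth.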
